A study of Mus musculus with 4 samples.

Results

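The keratin genes of the epidermis between hair follicles were followed in whole dorsal skin at late and middle telogen, when follicles rest between rounds of hair growth. They are Krt5 and Krt14, the keratins of the basal layer, and Krt1, Krt10, Krt2, Krt77, Krt78 and Krt80, grouped here as suprabasal. These 8 genes were chosen by name, out of 18193 genes measured, and each had at least 1 probe set annotated with its symbol alone. They, and the gene lists set beside them, were chosen with earlier results of these data known. Shares over all genes tested are therefore given as description, not as a test of these sets. The skin came from male C57B6 mice at postnatal day 59 (P59, 2 arrays, late telogen) and postnatal day 54 (P54, 2 arrays, middle telogen), with no treatment or transgene named for either group. Sex and strain were the same throughout. The labels call the arrays biological replicates but do not give the animals behind them or how many were pooled, so the p-values measure only the spread between these samples.

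Keratins are the intermediate filament proteins of epithelia, and each filament is built from a type I chain paired with a type II chain. Basal keratinocytes, which divide and rest on the basement membrane, make the type II keratin Krt5 with the type I keratin Krt14. On leaving the basal layer they switch to the type II keratin Krt1 with the type I keratin Krt10, and further type II keratins are added as they move outward. In mouse skin Krt5 and Krt14 are also made by the outer root sheath of the follicle and by the sebaceous gland, so whole-skin RNA reads them from more than the epidermis between follicles. The 2 type I genes, Krt14 and Krt10, lie on chromosome 11 and the other 6, all type II, on chromosome 15.

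The keratin genes were not equally visible on the arrays. Krt10, Krt77, Krt5, Krt1 and Krt14 each lay at percentile 99.5 or above of all genes by mean intensity, Krt80 at percentile 97.9 and Krt78 at percentile 83.3. Krt10 averaged 0.45 and Krt77 0.61 below the brightest probe set of an array on the log2 scale, so there was little range above them, and whether the scale is compressed there was not tested. Krt2, a keratin of the upper layers that in mice is known from ear, tail and sole rather than trunk skin, lay at percentile 9.07 and below the intensity filter of 6.58 (log2). Of the 8 genes 7 passed that filter and were tested. The labelled tissue held markers of epidermis, dermis, fat, muscle and macrophages, all described beside the results they bear on. P59 replicate 2 stood apart from the other arrays, with a score of 35.4 on the first principal component against -4.31 for P59 replicate 1 and -8.57 and -22.5 for P54 replicates 1 and 2, so the values that leaving it out moves most are also given without it.

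The proximal promoters are shown because these genes are read together below and share a feature next to their start. RefSeq (GRCm38.p6) windows were matched by symbol for 6 of the 8 genes, Krt5, Krt14, Krt10, Krt2, Krt77 and Krt78. The 120 bases directly upstream of the annotated start are printed 5′ to 3′ for a basal gene and 3 suprabasal genes, all on the minus strand: Krt5 (chr15:101712906-101713025), Krt10 (chr11:99389365-99389484), Krt77 (chr15:101869706-101869825) and Krt78 (chr15:101954288-101954407). Capitals mark a TATA box core (TATAAA) or a variant of it (TATATA, and also GATAAA) where it begins 20 to 40 bases before the start on the gene's strand.
Krt5: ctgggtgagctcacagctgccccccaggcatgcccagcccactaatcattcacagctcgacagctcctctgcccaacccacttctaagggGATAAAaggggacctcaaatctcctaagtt
Krt10: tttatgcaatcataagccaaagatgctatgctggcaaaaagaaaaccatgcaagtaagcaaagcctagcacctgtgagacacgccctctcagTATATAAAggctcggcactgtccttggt
Krt77: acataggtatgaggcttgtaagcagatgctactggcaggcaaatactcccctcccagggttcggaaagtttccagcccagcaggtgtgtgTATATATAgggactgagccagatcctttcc
Krt78: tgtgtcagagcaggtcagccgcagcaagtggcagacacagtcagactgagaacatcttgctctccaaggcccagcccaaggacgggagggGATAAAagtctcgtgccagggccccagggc
Krt5 and Krt78 both held GATAAA beginning 30 bases upstream. Krt10 held TATATA at 28 overlapping TATAAA at 26, and Krt77 held TATATA at 30 overlapping a second copy at 28. Krt2 held TATATA at 29 bases. The window listed for Krt14 held no form of the motif at that place. It lies inside the annotated span of that gene and may belong to a minor transcript. A form of the motif thus stood there in 5 of the 6 matched windows, against 3.28% of 32851 promoter windows of the same length. These letter sets were chosen after the keratin windows were read, so the contrast with 3.28% is not a test. A match is a description of the sequence, not a site. On both strands of the 250 upstream bases, TGANTCA (the AP-1 motif), GGGCGG (the GC box) and GCCNNNGGC (the AP-2 motif) matched in 0 of the 6 windows, that of Krt14 included. They occur in 6.75%, 32.7% and 13.7% of all windows.

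The first question was whether keratin transcripts differed between late and middle telogen. All 7 keratin genes that could be tested were lower on average at P59, by 0.12 to 0.49 on the log2 scale, and for each of them both P59 arrays lay below both P54 arrays. Across all 10916 genes tested 14.8% were separated in that direction, and 41.6% were lower on average. The median difference (P59 minus P54) of the 7 keratin genes was -0.27, beside 0.05 over all genes tested. No single keratin gene passed the test: in limma's fit 0 of 7 had an adjusted p under 0.05, where the background was 0.0183% of genes in either direction, and 0 of 7 had an unadjusted p under 0.05, where it was 6.49%. The differences are therefore small, shared in direction and not resolved gene by gene with 2 arrays a time point. An exact permutation test of 2 arrays against 2 could not go below 0.333 (two-sided). In whole skin, fewer keratinocytes and less transcript per keratinocyte cannot be told apart.

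**Figure D1:**
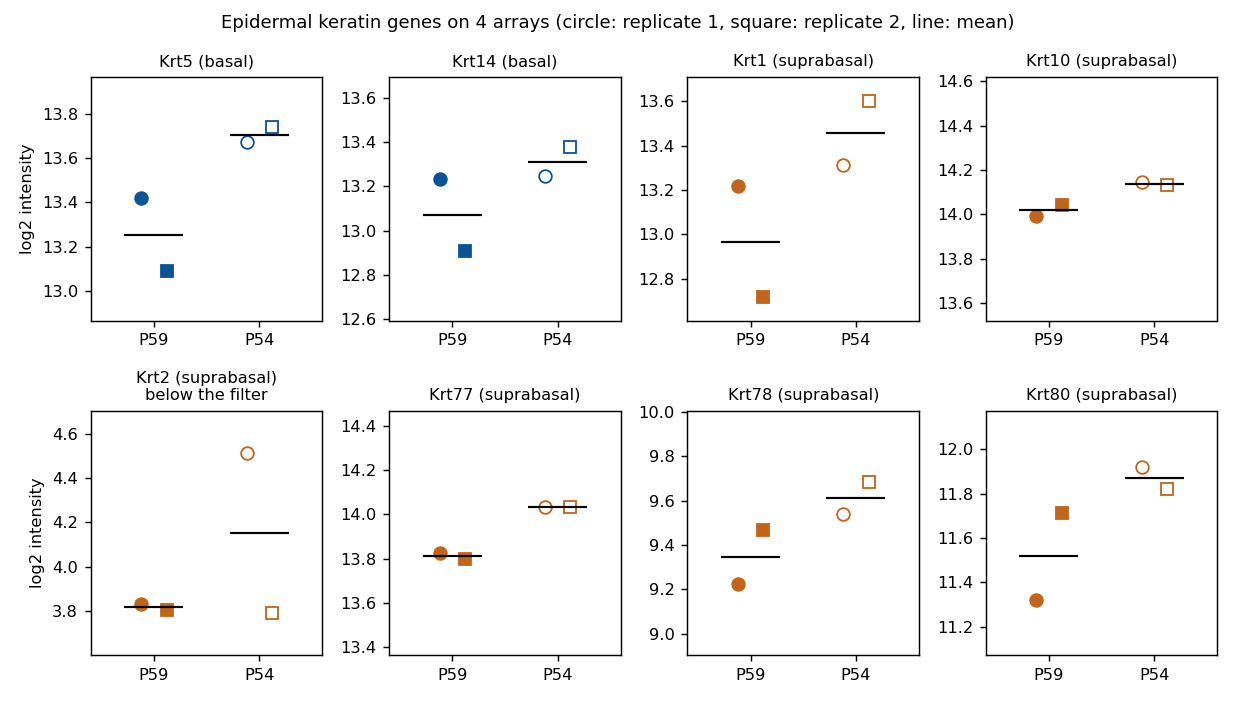
Log2 intensity of the 8 epidermal keratin genes, 1 panel per gene, with P59 arrays (filled) left of P54 arrays (open), replicate 1 as a circle, replicate 2 as a square and the group mean as a line. All panels span the same log2 range, each centred on its own gene. Both P59 arrays lie below both P54 arrays in every panel except that of Krt2, which was below the intensity filter.

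Krt5, the type II keratin of the basal layer, had log2 intensities of 13.42 and 13.09 in P59 replicates 1 and 2, against 13.67 and 13.74 in P54 replicates 1 and 2. The groups did not overlap, and the gap between them was 0.25. Means were 13.25 ± 0.23 at P59 and 13.71 ± 0.05 at P54 (SD, n = 2 each), a difference of -0.45 (95% interval -0.97 to 0.07, limma adjusted p = 0.840). P59 skin thus held 73.1% of the P54 intensity of Krt5 (95% interval 51.0% to 105%), as a ratio of geometric means. The gene was lower on both P59 arrays, and more so on P59 replicate 2: without that array the difference was -0.29, and without P59 replicate 1 it was -0.62.

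Krt14, the type I partner of Krt5, was at 13.23 and 12.91 at P59 and at 13.25 and 13.38 at P54. Here the groups were separated by 0.01, since P59 replicate 1 came level with P54 replicate 1. The difference was -0.24 (95% interval -0.76 to 0.28, limma adjusted p = 0.947), and it was -0.08 without P59 replicate 2 and -0.40 without P59 replicate 1. After a further quantile normalization P59 replicate 1 lay above P54 replicate 1, at 13.25 against 13.23, and the groups of Krt14 overlapped. The probe set used for Krt14 is of the kind named _x_at, which can match more than 1 transcript, so its 2 other sets were read beside it. Probe set 1460347_at was at 12.90 and 12.33 at P59 and at 12.90 and 13.08 at P54, a difference of -0.38. Probe set 1455573_at, much dimmer, was at 8.03 and 7.64 at P59 and at 8.19 and 8.06 at P54, a difference of -0.29. All 3 sets had their lowest value on P59 replicate 2, and their adjusted p over all probe sets in limma ranged from 0.952 to 0.956.

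Krt1, the type II keratin that replaces Krt5 as cells leave the basal layer, showed the largest difference of the 7. It was at 13.22 and 12.71 at P59 and at 13.31 and 13.60 at P54, with no overlap and a gap of 0.09. Its difference was -0.49 (95% interval -1.06 to 0.08, limma adjusted p = 0.845), or 71.1% of the P54 intensity. P59 replicate 2 was again the lowest array: the difference was -0.24 without it and -0.74 without P59 replicate 1. Krt10, the type I partner of Krt1, was at 13.99 and 14.04 at P59 and at 14.14 and 14.13 at P54. This was the smallest difference, -0.12 (95% interval -0.61 to 0.37, limma adjusted p = 0.971), on tight replicates (SD 0.03 at P59 and 0.01 at P54, n = 2 each) close to the top of the scale. The 2 partners of this pair therefore had differences of unequal size, and the difference between them was not tested.

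Krt77, a type II keratin related to Krt1 that mice make in suprabasal epidermis, was at 13.83 and 13.80 at P59 and at 14.03 on both P54 arrays. The gap between the groups, 0.20, was larger than the spread within either (SD 0.02 at P59 and 0.0017 at P54, n = 2 each). Like Krt10, Krt77 lay close to the top of the scale, and whether the spread is compressed there was not tested. Its difference of -0.22 (95% interval -0.71 to 0.27, limma adjusted p = 0.949) hardly moved when any 1 array was left out, staying between -0.24 and -0.21. limma draws the spread of each gene toward that of all genes, which gave Krt77 a standard error of 0.22, and its unadjusted p was 0.340. With a prior that follows intensity the unadjusted limma p was 0.0861 for Krt77, 0.00981 for Krt5 and 0.0197 for Krt1, and the adjusted p was 0.835, 0.474 and 0.576. The unadjusted p was 0.0936 for Krt80, 0.145 for Krt14, 0.280 for Krt78 and 0.318 for Krt10. Under that prior 2 of 7 keratin genes had an unadjusted p under 0.05, as did 729 of 10916 genes tested.

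Krt78, a type II keratin of stratified epithelia, was at 9.22 and 9.47 at P59 and at 9.54 and 9.68 at P54, with no overlap. The difference was -0.27 (95% interval -0.78 to 0.25, limma adjusted p = 0.938). Krt80, a type II keratin found in many epithelia and linked to their differentiation, was at 11.32 and 11.71 at P59 and at 11.92 and 11.82 at P54. It differed by -0.36 (95% interval -0.89 to 0.18, limma adjusted p = 0.907), with no overlap and a gap of 0.11. Unlike the basal pair and Krt1, these 2 genes were lowest on P59 replicate 1: without that array Krt78 differed by -0.14 and Krt80 by -0.16, and without P59 replicate 2 they differed by -0.39 and -0.55.

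Krt2 gave no readable signal in this skin. Its intensity was 14.3 and 14.0 at P59 and 22.9 and 13.8 at P54, where the filter stood at 95.5. In log2 it was at 3.83 and 3.81 at P59 and at 4.51 and 3.79 at P54, so the groups overlapped and P54 replicate 1 alone was higher. No test of it was made at the filter used.

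**Figure D2:**
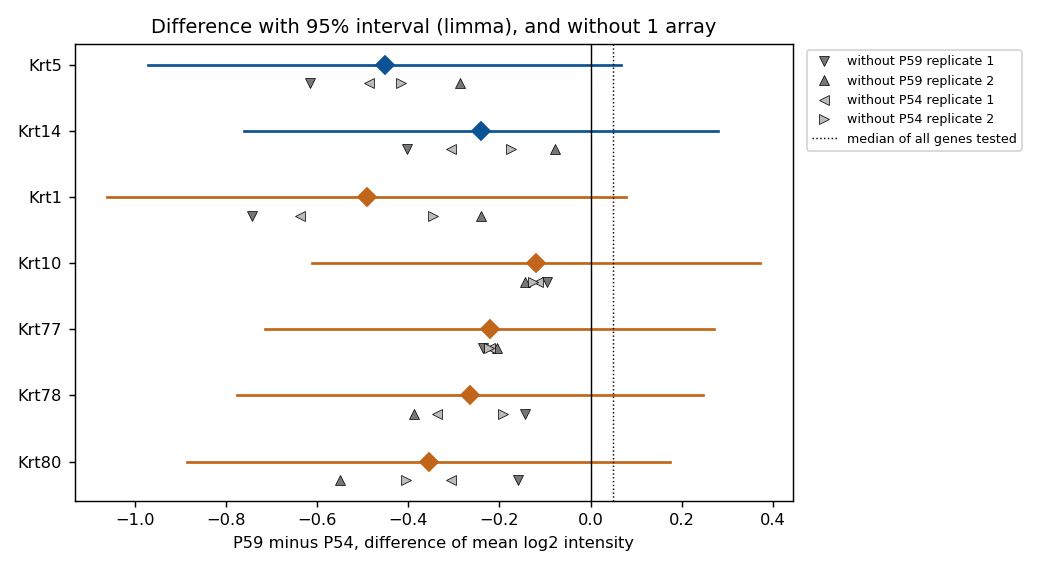
Difference of mean log2 intensity, P59 minus P54, for the 7 keratin genes tested (diamonds, basal in blue and suprabasal in orange), with limma's 95% interval as a line. Triangles give the difference with 1 array left out, and the dotted line marks the median of all genes tested, 0.05. Every diamond and triangle lies below 0, and every interval crosses it. The side of the triangles was fixed in advance, since both P59 arrays lay below both P54 arrays for each gene.

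The second question was whether basal and suprabasal keratins moved apart. Since levels of different probe sets cannot be set against each other, each gene was expressed relative to its own mean over the 4 arrays. The basal pair then averaged -0.01 and -0.34 on P59 replicates 1 and 2, against 0.12 and 0.22 on P54 replicates 1 and 2. The 6 suprabasal genes averaged -0.16 and -0.14 at P59, against 0.18 and 0.12 at P54. Both classes were thus lower at P59, by 0.35 for the basal and 0.30 for the suprabasal genes on the log2 scale. The basal difference was -0.18 without P59 replicate 2 and -0.51 without P59 replicate 1.

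The balance between them, suprabasal minus basal, did not separate the groups. It was -0.15 and 0.20 on P59 replicates 1 and 2, and 0.06 and -0.11 on P54 replicates 1 and 2, so the P59 arrays lay on either side of both P54 arrays. Its mean was 0.02 ± 0.25 at P59 and -0.02 ± 0.12 at P54 (SD, n = 2 each), a difference of 0.05 that is smaller than the spread within either group. Without P59 replicate 1 the difference was 0.22 and without P59 replicate 2 it was -0.12. Leaving out Krt2, chosen after its values were seen, gave 0.06, and setting Krt1 and Krt10 alone against Krt5 and Krt14 gave 0.04. In these 2 versions the difference was smaller than the SD at P59 (0.25 and 0.07). It was larger than the SD at P54 (0.03 in each), so the comparison with the P54 spread depended on Krt2. No test was made of a score over chosen genes.

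**Figure D3:**
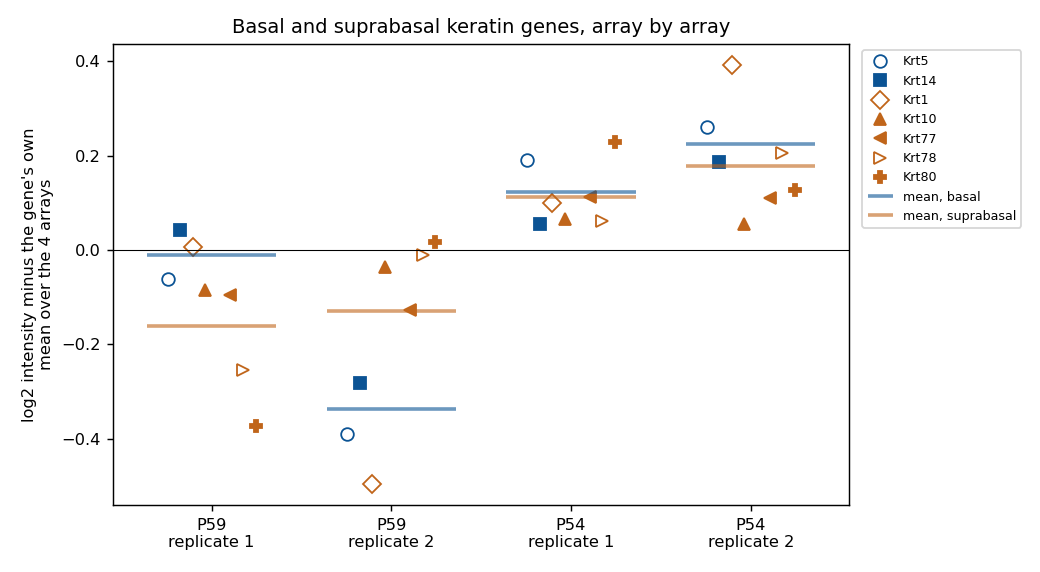
Log2 intensity of 7 keratin genes relative to each gene's own mean over the 4 arrays, shown for each array, with basal genes in blue, suprabasal genes in orange and class means as bars (Krt2 left out). On P59 replicate 2 the lowest points are Krt1, Krt5 and Krt14, and on P59 replicate 1 they are Krt80 and Krt78.

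The keratin genes did not share 1 order over the P59 arrays. The lowest of the 4 arrays was P59 replicate 2 for 4 genes (Krt5, Krt14, Krt1 and Krt77) and P59 replicate 1 for 3 (Krt10, Krt78 and Krt80). The step between the P59 arrays, replicate 2 minus replicate 1, was -0.33 for Krt5, -0.32 for Krt14 and -0.50 for Krt1, but 0.24 for Krt78 and 0.39 for Krt80. It was 0.05 for Krt10 and -0.03 for Krt77. As a description over 4 arrays, the root mean square distance between centred profiles was smallest for Krt10 with Krt77 (0.06) and largest for Krt1 with Krt80 (0.35). Krt10, Krt77, Krt78 and Krt80 each lay nearest to another suprabasal gene, and Krt14 lay nearest to its partner Krt5 (0.11). Krt5 and Krt1, of different layers, were nearest to each other (0.10), by a small margin for Krt5 over its partner Krt14. The partners Krt1 and Krt10 lay 0.29 apart.

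The same distance named the genes most like the keratins among the other genes tested. Closest to the mean profile of Krt5 and Krt14 were Eml3 (0.02), Scap (0.02), Ltb4r1 (0.03), Tmem63a (0.03) and Bcl2l13 (0.03). Scap encodes the escort of the sterol-responsive SREBP factors and Ltb4r1 a leukotriene B4 receptor. Closest to that of Krt1 and Krt10 were Dtx3 (0.01), Stx1a (0.02), Als2cl (0.02), Kdelr1 (0.02) and Slfn9 (0.02). Kdelr1 encodes a receptor that returns proteins to the endoplasmic reticulum. Each of these 10 genes was also lower on both P59 arrays, by 0.28 to 0.40 on the log2 scale, as the measure requires.

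Other genes of the basal layer were set beside the basal keratins. Of 16 tested genes of the basal layer and hemidesmosome, the junction that ties basal keratin filaments to the basement membrane, 15 were lower on average at P59 and 1 was higher, with a median difference of -0.31. Both P59 arrays lay below both P54 arrays for 9 of them. Of all genes tested, 41.6% were lower on average and 14.8% were separated that way. Limma calls among the 16 were 0 at an adjusted p under 0.05. At an unadjusted p under 0.05 there were 4 lower, where 3.01% of all genes tested were, and 0 higher, where 3.47% were. These were the integrin genes Itga3 (-0.73, adjusted p = 0.545) and Itgb4 (-0.87, adjusted p = 0.650), the hemidesmosome collagen gene Col17a1 (-0.61, adjusted p = 0.639) and the laminin gene Lamb3 (-0.56, adjusted p = 0.744). Itgb4 was at 9.34 and 8.28 at P59 and at 9.83 and 9.53 at P54, and differed by -0.34 without P59 replicate 2. Col17a1 was at 12.02 and 11.98 at P59 and at 12.46 and 12.76 at P54, and differed by -0.59 without that array.

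Of 20 tested proteins that bind keratin filaments or link them to junctions, 17 were lower on average and 3 higher, with a median of -0.37. The lists share genes and are not independent of each other. Plec is also on the basal layer list, and Sfn on that of the regulators. Dsp, Ppl, Evpl and Pkp1 are also on the spinous and granular list. The share lower among all genes tested was 41.6%. At the adjusted threshold limma called 0 of the 20. At an unadjusted p under 0.05 there were 0 higher, where 3.47% of all genes tested were, and 3 lower, where 3.01% were. They were the plakophilin gene Pkp3 (-0.68, adjusted p = 0.669; -1.26 when its probe sets were averaged), the envoplakin gene Evpl (-0.63, adjusted p = 0.744) and the desmosomal cadherin gene Dsg2 (-0.56, adjusted p = 0.755). Pkp3 and Evpl differed by -0.42 and -0.30 once P59 replicate 2 was left out, and the median of the list was then -0.16. Sfn, which encodes the keratinocyte 14-3-3 sigma protein, was at 10.31 and 8.28 at P59 and at 10.43 and 10.27 at P54, so its difference of -1.05 came from P59 replicate 2 and was -0.04 without it.

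Genes of the spinous and granular layers, where the suprabasal keratins are made, went both ways, with more of them lower. Of 35 tested, 26 were lower on average, where 41.6% of all genes tested were, and 9 higher. The median was -0.20 (-0.12 without P59 replicate 1). Both P59 arrays lay below both P54 arrays for 20, where 14.8% of all genes tested did, and above them for 5, where 18.9% did. At an unadjusted limma p under 0.05 there were 5 lower, where 3.01% of all genes tested were, and 2 higher, where 3.47% were. The adjusted threshold was passed by 0. The transglutaminase gene Tgm5, whose enzyme crosslinks the cornified envelope, was at 8.78 and 8.54 at P59 and at 9.73 and 9.88 at P54. Its difference was -1.15 (SE 0.23, adjusted p = 0.179), and -1.03 without P59 replicate 2. Lgals7, the galectin of stratified epithelia, differed by -0.76 (adjusted p = 0.639; -0.39 without P54 replicate 2). In the other direction stood the cornified envelope gene Rptn (1.57, adjusted p = 0.282; 0.96 without P59 replicate 2, and 0.64 when its probe sets were averaged) and the transglutaminase gene Tgm3 (0.66, adjusted p = 0.583).

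Regulators of keratinocyte differentiation had a median of -0.15 (-0.04 without P59 replicate 1 and -0.25 without P54 replicate 1). Of 29 tested, 20 were lower on average and 9 higher, where 41.6% of all genes tested were lower. At an unadjusted limma p under 0.05 there were 3 lower, where 3.01% of all genes tested were, and 1 higher, where 3.47% were, with 0 past the adjusted threshold. The higher gene was Ehf, an ETS factor of epithelia, at 7.48 and 7.80 at P59 and at 6.57 and 6.02 at P54. Both P54 values lay below the intensity filter, so Ehf, like Casr, was tested only because of its P59 level, and nothing is read from its difference. The lower genes were the receptors Notch1 (-0.84, adjusted p = 0.478) and Notch3 (-0.51, adjusted p = 0.760; -0.91 when its probe sets were averaged), and the AP-1 subunit gene Junb (-1.01, adjusted p = 0.575). Junb was at 7.80 and 6.71 at P59 and at 8.09 and 8.44 at P54, and differed by -0.46 without P59 replicate 2.

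**Figure D4:**
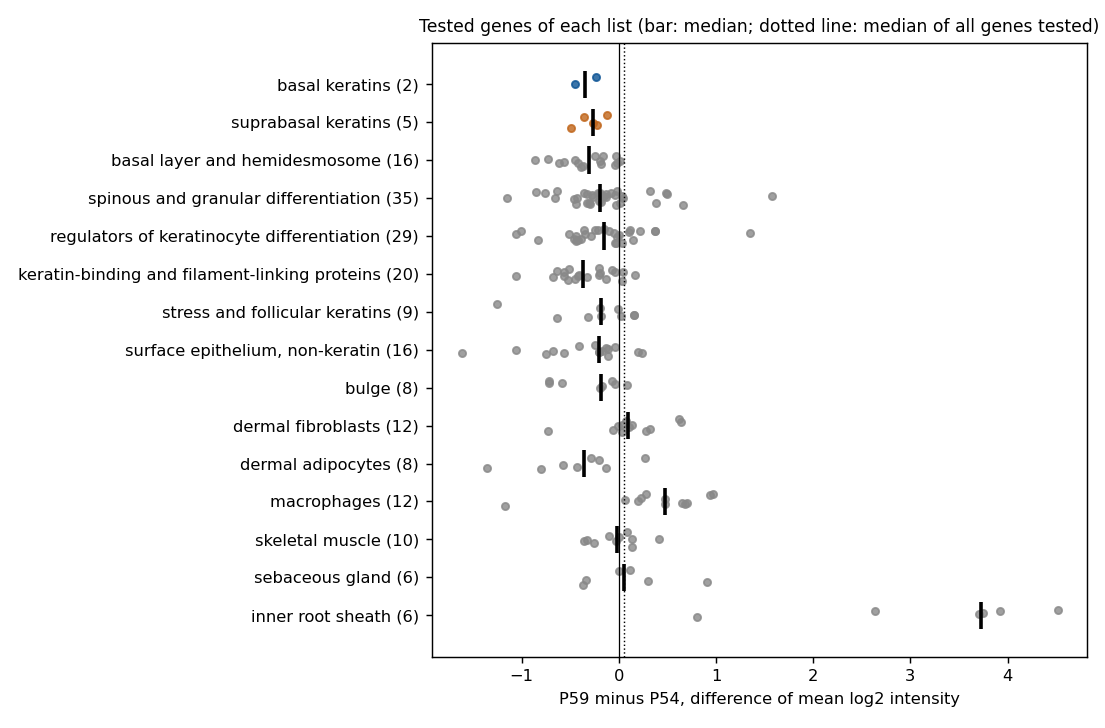
Difference of mean log2 intensity, P59 minus P54, of every tested gene on each list (points), with the list's median as a bar, the number of tested genes in brackets, and the median of all genes tested as a dotted line. The keratin genes all lie below 0, at medians of -0.35 (basal) and -0.27 (suprabasal; -0.16 without P59 replicate 1). Medians of the other lists of surface epithelium ran from -0.37 to -0.15. Those of dermal adipocytes (-0.36), bulge (-0.19) and stress and follicular keratins (-0.18) lay in the same range. The remaining lists had medians from -0.02 upward.

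Markers of the other cells of the skin moved as well, and the keratin values have to be read beside them. Of all genes tested, 41.6% were lower on average. Surface epithelium was followed with 16 genes that are not keratins and partly stand on the lists above, such as the claudin gene Cldn4 and the filament-anchoring protein gene Lad1. Of these 14 were lower on average and 2 higher, the median was -0.20 (-0.13 without P59 replicate 1), and their summed intensity was 52249 and 52485 on the P59 arrays, against 58257 and 61358 on the P54 arrays. Macrophage markers went the other way: 11 of 12 were higher on average, with a median of 0.48 and a summed intensity of 16606 and 18840 at P59, against 14227 and 12794 at P54. The exception was C1qa, at -1.18, while C1qb and C1qc were at 0.28 and 0.23. Inner root sheath genes of the growing follicle had a summed intensity over 9 measured genes of 12919 and 2256 at P59, against 804 and 432 at P54. Of these 9, 3 (Krt26, Krt73 and Padi3) were below the filter and 5 passed it only through their P59 level, so no count is given over the 6 tested. Adipocyte markers were lower for 7 of 8 (median -0.36, or -0.22 without P54 replicate 1), at 15503 and 16652 at P59 against 20592 and 18458 at P54. Fibroblast markers were higher for 9 of 12, with a median of 0.09 that ranged from 0.01 without P59 replicate 2 to 0.22 without P59 replicate 1. Muscle markers were higher for 4 of 10, with a median of -0.02 that ranged from -0.17 without P59 replicate 1 to 0.21 without P59 replicate 2. The sums of both lists overlapped between the groups. Sebaceous gland markers were higher for 3 of 6 tested, and their median of 0.06 ranged from -0.16 without P54 replicate 1 to 0.26 without P54 replicate 2. Bulge markers were lower for 7 of 8 (median -0.19, or -0.11 without P59 replicate 1 and -0.28 without P59 replicate 2). Of all these markers 0 passed the adjusted threshold in limma. At an unadjusted p under 0.05, which 3.01% of all genes tested reached as lower and 3.47% as higher, 8 of 78 tested markers were lower. Higher, with the inner root sheath list left out, were 5 of 12 macrophage, 2 of 12 fibroblast and 1 of 6 sebaceous gland markers. Of those 78, 5 are the inner root sheath genes that passed the filter through P59. The part of the markers in the keratin differences was not tested.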

How the data were processed

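Dorsal skin RNA was hybridised as biotin-labelled cRNA to 4 Affymetrix arrays, 2 at P59 and 2 at P54. Intensity on a linear scale, per probe set, was deposited by the authors in 1 table, with RMA and Affymetrix Expression Console named in the submitters' processing notes. No version or genome build is given in the sources used here. Values were taken to log2 with no offset. Of 45101 probe sets, 34945 with 1 gene symbol were kept. Left out were 64 control sets, of which 13 had a symbol, 932 sets with several gene symbols and 9211 unlisted ones. The unlisted ones include the control sets without a symbol. The set with the highest mean represented each of 18193 genes, and 10916 of them, those brighter on average than the 40th percentile, were tested. The contrast of P59 with P54 was fitted by lmFit and eBayes of limma 3.58.1 under R 4.3.3, with 2 residual and 8.18 prior degrees of freedom and Benjamini-Hochberg adjustment over all genes tested. The fit was tested on simulated data with changes larger than those of the keratin genes. That check does not cover differences of their size. The array number limits precision. Named genes are the 8 keratins, up to 4 genes per list with the smallest p, and 5 per profile by likeness. Y-linked genes and clones were passed over in the last. The members and lists were chosen with earlier results of these data known. Alternatives changed the filter, probe set rule, normalization, prior, arrays and replicate block. Promoters came from RefSeq, GRCm38.p6.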

Additional observations from a re-analysis of the deposited data

How the results depend on the processing

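Each of the 7 tested keratin genes stayed lower at P59 and short of the adjusted threshold under every alternative run (other filters, probe sets, normalization, prior, replicate block, and each array left out), with 0 called each time. With 1 array left out, the lone array of its group is assumed to vary like the other group. The lowest adjusted p was 0.142, for Krt1 without P59 replicate 1, and several reached 1. The count of keratin genes with both P59 arrays below both P54 arrays, 7 of 8, was 7 with the mean of all probe sets. It was 6 after quantile normalization, when Krt14 was lost. Leaving 1 array out could neither undo the separation of the 7 genes nor turn the sign of a difference, so those runs test neither. The count was then 7, or 8 without P54 replicate 2, which added Krt2, a gene with no readable signal. The median of the 7 genes ranged from -0.31 to -0.22 with 1 array left out, beside -0.03 to 0.13 for all genes. The balance of suprabasal against basal genes ranged from -0.12 to 0.22 with 1 array left out, and from 0.01 to 0.13 otherwise. Over all genes, the 2 calls of the limma fit became 0 with each probe set tested, a filter at the 60th percentile, the mean of all probe sets, no intensity filter or quantile normalization, where 950, 457, 705, 1122 and 759 had an unadjusted p under 0.05. They became 72 without P54 replicate 1, 34 without P54 replicate 2, 402 without P59 replicate 1 and 29 without P59 replicate 2. Deviations of same-numbered arrays from their group means had r = -0.04 across 10916 genes, which are not independent replicates. With 1 such pair of deviations this value cannot decide whether equal numbers mark paired samples, and the labels do not say. A replicate block gave 156 calls over all genes and 0 keratin genes. With the prior that follows intensity, 2 of 7 keratin genes had an unadjusted limma p under 0.05, as did 729 of 10916 genes tested. With 2 arrays a group the 95% interval of every tested keratin gene crossed 0, so differences of the size seen here could not be resolved gene by gene.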

Other observations

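Keratins induced by stress or made in particular parts of the follicle had a median difference of -0.18 (0.03 without P59 replicate 1 and 0.13 without P54 replicate 2). Of 9 tested genes 6 were lower at P59 on average, beside 41.6% of all genes tested. An unadjusted limma p under 0.05 was reached by 0 of the 9, and by 6.49% of all genes tested. Krt15, a type I keratin of basal and bulge cells, was at 13.51 and 13.71 at P59 and at 13.77 and 13.84 at P54 (difference -0.20, or -0.09 without P59 replicate 1, adjusted p = 0.952). Krt75, a keratin of the companion layer, was at 9.49 and 8.47 at P59 and at 9.51 and 9.72 at P54, and its difference of -0.64 was -0.12 without P59 replicate 2. Krt6b, which keratinocytes induce on wounding, was at 7.86 and 5.92 at P59 and at 6.09 and 10.20 at P54. Its P54 replicates thus lay further apart than its groups, and its difference of -1.25 was 0.80 without P54 replicate 2.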
